A study of Mus musculus with 16 samples.

Results

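The 38 genes described here take up, activate and burn fatty acids or are classical targets of the PPAR nuclear receptors. They were taken as a list of gene symbols, and all 38 were found among the 55359 gene models counted in each library. This list and the further lists used below were chosen with earlier results of these data known. Shares over all genes set beside them are description and no test of a list. Of the 38, 14 act in mitochondria (Cpt1a, Slc25a20, Cpt2, Acadvl, Acadl, Acadm, Acads, Acad10, Hadha, Hadhb, Hadh, Acaa2, Decr1 and Eci1) and 7 in peroxisomes (Acox2, Ehhadh, Hsd17b4, Acaa1a, Acaa1b, Decr2 and Crot). Another 4 are known in both organelles (Acad11, Crat, Ech1 and Eci2). The other 13 are regulators, carriers and further PPAR targets (Ppara, Pparg, Cd36, Fabp3, Fabp4, Slc27a2, Pdk4, Vnn1, Cyp4a10, Cyp4a14, Acot1, Acot2 and Pex11a).

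RNA was sequenced from whole kidney and whole ovary of wild-type CBAF1 female mice aged 21 days. The treated mice received 7.5 mg/kg PT-2385 and the vehicle mice 5% DMSO in saline, by intraperitoneal injection at 12 h intervals for 4 days. PT-2385 is a HIF-2α antagonist: it occupies a pocket of this hypoxia-inducible factor, the product of Epas1, and blocks its pairing with ARNT. All mice, vehicle mice included, were given 5 IU of PMSG, which drives follicle growth, then after 48 h 5 IU of hCG, which triggers ovulation, and organs were taken 13 h after hCG. Each of the 4 groups (kidney with PT-2385, kidney with vehicle, ovary with PT-2385, ovary with vehicle) held 4 libraries. No label says whether the 4 libraries of a group are 4 animals, and the p-values therefore measure the spread between these samples, which may be technical.

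Fatty acids enter cells through carriers such as CD36, are bound to coenzyme A, and cross the mitochondrial membrane by the carnitine shuttle (CPT1A, the SLC25A20 translocase and CPT2). Each round of β-oxidation then removes an acetyl unit by a dehydrogenase or oxidase, a hydratase, a second dehydrogenase and a thiolase. Peroxisomes shorten very long and branched chains, and mitochondria oxidise the rest. PPARα, bound with RXR to a direct repeat of AGGTCA, activates many of these genes when fatty acids are abundant. Proximal tubule cells of the kidney draw most of their energy from fatty acids, and in the ovary β-oxidation is known in the oocyte and its cumulus cells.

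Assigned read pairs per library lay between 12.7 and 43.3 M (1 M is 1e6) in PT-2385 kidneys, 23.3 and 27.0 M in vehicle kidneys, 17.2 and 32.0 M in PT-2385 ovaries, and 29.5 and 33.6 M in vehicle ovaries. The 38 genes took between 0.746% and 0.836% of these counts in PT-2385 kidneys and between 0.850% and 1.07% in vehicle kidneys. They took between 0.185% and 0.200% in PT-2385 ovaries and between 0.210% and 0.244% in vehicle ovaries. Summed proximal tubule markers marked the kidneys, with at least 21140 CPM (counts per 1e6 counts) in each kidney library. Of the ovary libraries, 7 had between 7.34 and 9.1 CPM of those 12 markers and vehicle replicate 1 had 68.4 CPM. The file name of PT-2385 kidney replicate 3 carried another flow-cell code than the rest.

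Promoter stretches are shown for 5 of the 8 genes that passed the test in kidney, so that the letters can be set beside the responses. The 5 and their stretches were chosen because they hold matches to the letters described below, so their matches are no result. The windows of Acox2 and Fabp3, which also passed, held none of these matches, and Hsd17b4 passed as well. The windows are RefSeq windows on GRCm38.p6, and the 250 bases before a transcript start were searched on both strands. Such a start need not be the first base of the gene model, so a stretch may lie within the gene model. A window was at hand for 30 of the 38 genes, with 33 windows in all. In the stretches below, capitals mark GCGTG (read as CACGC on the other strand) and ACGTG, both forms of the hypoxia-inducible factor core, and AGGTCA (read as TGACCT on the other strand), the PPAR repeat unit. The stretches lie at chr2:126552791-126552820 (plus strand) for Slc27a2, chr15:85735638-85735697 (plus strand) for Ppara, chr5:121660514-121660573 (minus strand) for Acad10, chr9:104063635-104063694 (plus strand) for Acad11 and chr13:34994145-34994174 (minus strand) for Eci2, and each is written 5′ to 3′ on the strand of its gene.
Slc27a2: agcacCACGCcttTGACCTtttcaACGTGg
Ppara: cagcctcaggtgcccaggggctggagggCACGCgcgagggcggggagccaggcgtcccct
Acad10: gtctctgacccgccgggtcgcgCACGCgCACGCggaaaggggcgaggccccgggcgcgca
Acad11: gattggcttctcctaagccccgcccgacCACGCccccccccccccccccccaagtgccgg
Eci2: gaaccctggccccaccCACGCccggagcgc

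The Slc27a2 stretch held all 3 kinds of match within 30 bases. ACGTG or GCGTG stood in 13 of the 33 windows of these genes (39.4%), against 38.6% of all 32851 promoter windows. AGGTCA stood in 7 of the 33 (21.2%), in windows of Acadm, Acadvl, Cd36, Cpt1a, Pparg and Slc27a2, against 14% of all windows. The full PPAR element, a direct repeat of AGGTCA with 1 base of any kind between the copies, stood in 0 of the 33 and in 0.0335% of all windows. These are matches of letters and say nothing of binding.

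Hadha and Hadhb, which encode the α and β subunits of the mitochondrial trifunctional protein, lie head to head. The 85 bases between the gene models (chr5:30155163-30155247, GRCm38.p6) are written on the strand of Hadhb, with no capitals.
Hadha and Hadhb: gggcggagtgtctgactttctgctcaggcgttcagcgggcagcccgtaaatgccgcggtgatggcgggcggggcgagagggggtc

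Both genes had small values, and in kidney so had Slc25a20 and Hadh on other chromosomes (log2 fold change −0.08 each). Log2 fold changes of PT-2385 over vehicle were −0.08 for Hadha and −0.08 for Hadhb in kidney, and −0.03 for Hadha and −0.06 for Hadhb in ovary, and none passed the test.

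Levels in the 2 organs were compared as CPM per kb of exon length, scaled over all 16 libraries, in the vehicle groups. RNA was isolated with Trizol from kidney and with a column kit from ovary, so these levels are a description with no test. In 36 of the 38 genes all 4 vehicle kidneys lay above all 4 vehicle ovaries. Neither this count nor the ratios that follow were made over all genes. They are therefore not shown to be particular to these 38. The median kidney-over-ovary ratio was 2.75 (from 1.1 to 15.4) for the 14 mitochondrial genes and 5.17 (from 2.2 to 851) for the 7 peroxisomal genes. It was 4.2 for the 4 genes of both organelles and 4.3 for the 13 others. The highest peroxisomal ratio, that of Acox2, rested on 33 counts over the 4 vehicle ovaries, 30 of them in replicate 1. Without that library the medians moved little, to 2.69 for the mitochondrial and 5.13 for the peroxisomal genes. The Acox2 ratio itself moved from 851 to 6939, on 3 ovary counts.

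The most abundant in kidney was Slc27a2, which encodes the very long chain acyl-CoA synthetase and carrier FATP2, at 838 ± 105 CPM per kb in vehicle kidney and 0.576 ± 0.894 in vehicle ovary (SD, n = 4 each). The ovary value was 0.129 ± 0.0164 (SD, n = 3) without vehicle replicate 1. Acadm, the medium-chain acyl-CoA dehydrogenase, stood at 639 ± 143 CPM per kb in vehicle kidney, and its range overlapped that of Slc27a2. Hadh, the short-chain hydroxyacyl-CoA dehydrogenase, followed at 254 ± 9.41 CPM per kb in kidney, overlapping Ech1, a dienoyl-CoA isomerase, at 247 ± 4.46. The peroxisomal genes Ehhadh, the bifunctional hydratase and dehydrogenase, and Acaa1b, a thiolase, were among those furthest apart between organs. Ehhadh had 216 ± 59.9 CPM per kb in vehicle kidney and 1.35 ± 0.137 in vehicle ovary, and Acaa1b had 112 ± 8.82 in vehicle kidney and 0.769 ± 0.091 in vehicle ovary.

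In ovary the order was another, with Acaa2, the mitochondrial thiolase, at 82.6 ± 12.5 CPM per kb, Cpt1a at 81.1 ± 4.62 and Acadm at 75.0 ± 13.0 (SD, n = 4 each). The ranges of these 3 overlapped. Cpt1a, the entry step of the carnitine shuttle, was the gene whose organs overlapped, with 89.4 ± 6.46 CPM per kb in vehicle kidney. Pparg, the receptor that drives adipocyte differentiation and is also known in granulosa cells, was the exception in the other direction, with 1.93 ± 0.475 CPM per kb in vehicle kidney and 12.7 ± 3.03 in vehicle ovary. Ppara had 10.1 ± 1.18 CPM per kb in vehicle kidney and 1.04 ± 0.152 in vehicle ovary.

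**Figure D1:**
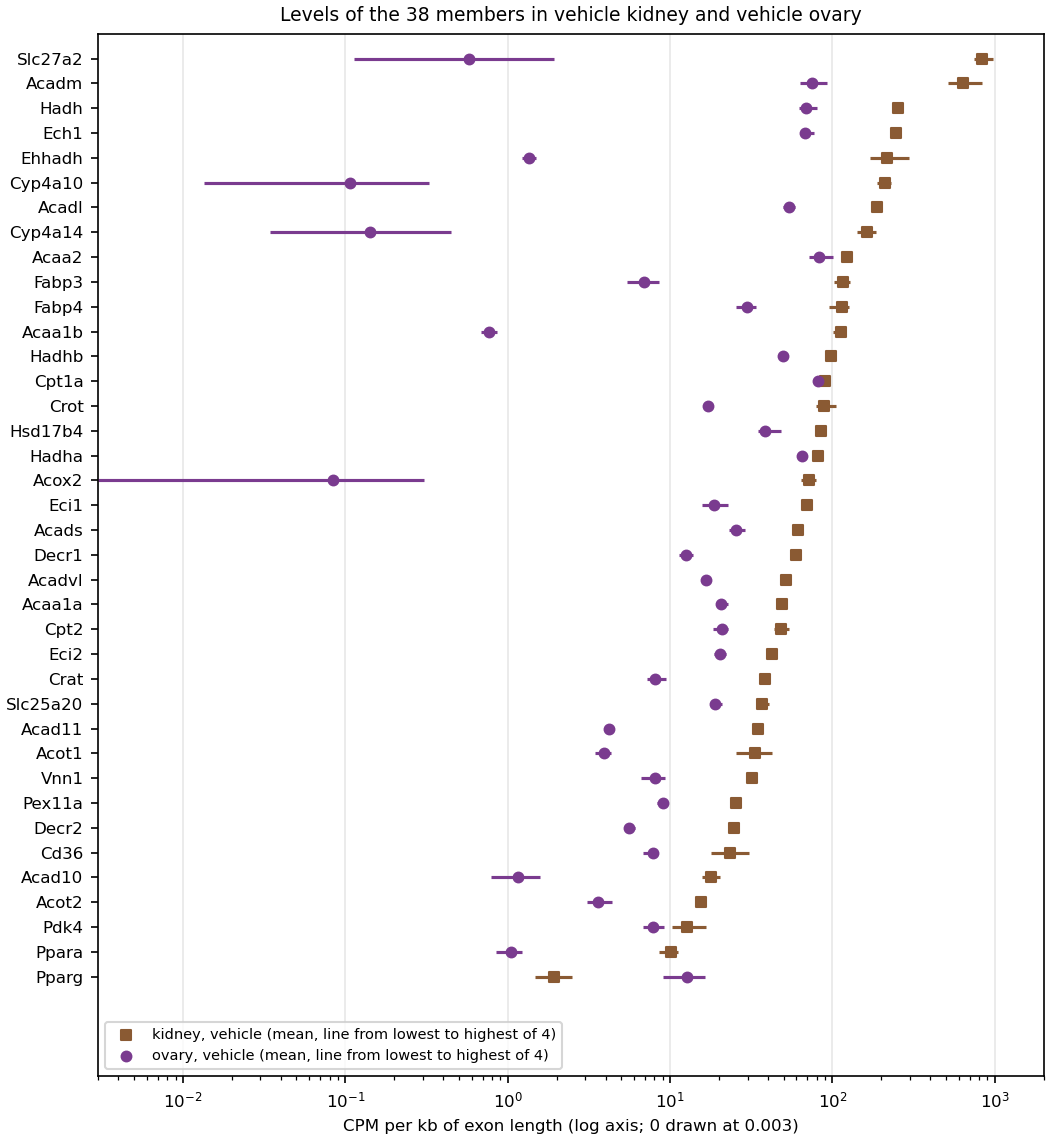
Levels of the 38 genes in vehicle kidney (squares) and vehicle ovary (circles), in CPM per kb of exon length on a log axis, as means of 4 libraries with a line from the lowest to the highest library. Kidney squares lie to the right of ovary circles except for Pparg, and for Cpt1a the lines overlap.

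In kidney, PT-2385 libraries held less RNA of Ppara, of the acyl-CoA synthetase Slc27a2 and of 5 oxidation enzymes, and more RNA of Fabp3. Of the 38 genes, 7 fell and 1 rose at an adjusted p under 0.05 (edgeR quasi-likelihood test, Benjamini-Hochberg over all 17763 genes tested), where 5.53% of all genes tested passed, 3.7% falling and 1.83% rising. Log2 fold changes were negative in 33 of the 38 (48.5% of all genes tested), with a median of −0.15 against 0.0066 over all genes tested. At an unadjusted p under 0.05 there were 21 of the 38, against 23.1% of all genes tested. In these bulk libraries, fewer cells of a type and less RNA per cell cannot be told apart.

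**Figure D2:**
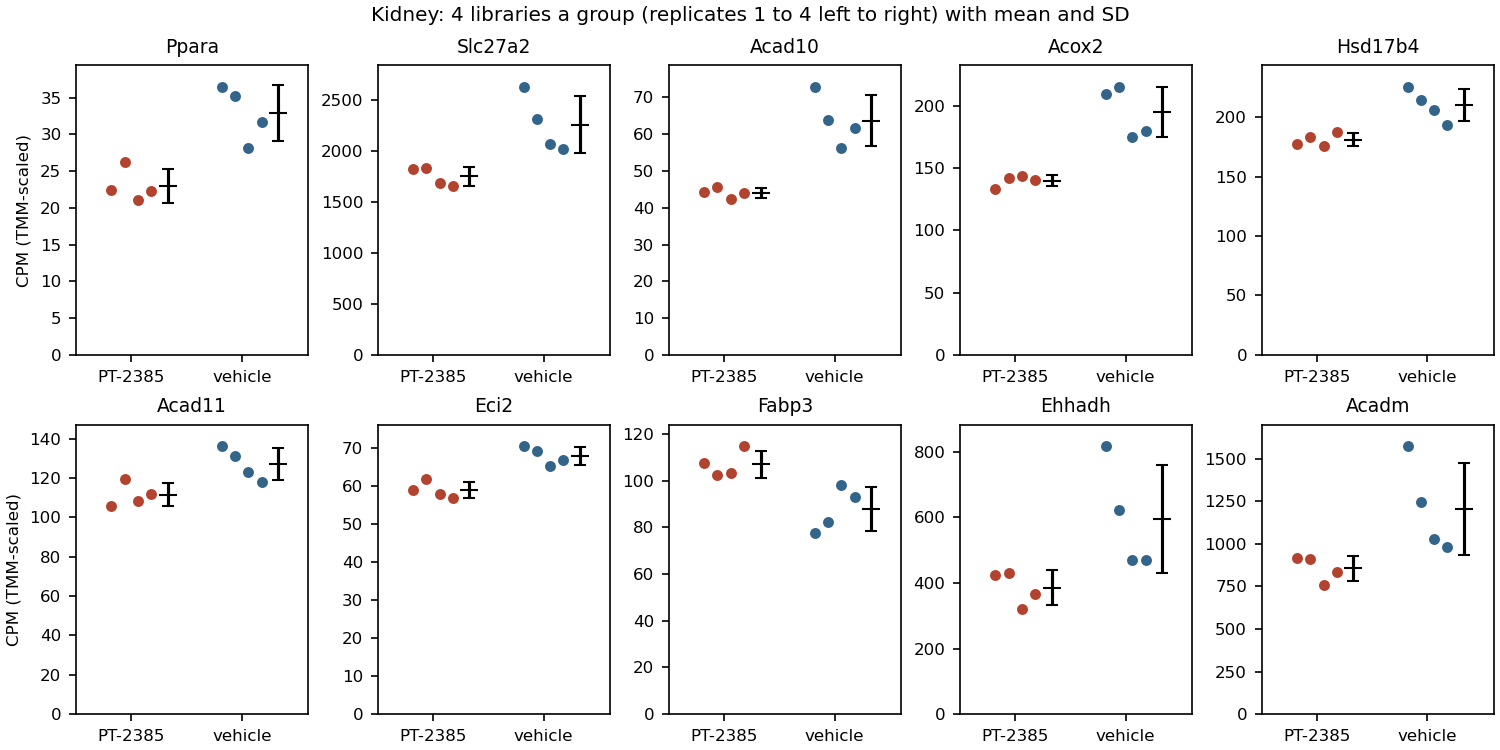
CPM in each kidney library for the 8 genes that passed the test and for Ehhadh and Acadm, which did not; each panel has its own axis from 0, points are replicates 1 to 4 from left to right, and the bar is mean and SD. PT-2385 points lie below all vehicle points in 8 panels and above them in the Fabp3 panel, and overlap them in the Acad11 panel.

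Among the regulators, Ppara (ENSMUSG00000022383.14; GRCm39 chromosome 15, 85619765 to 85687020, plus strand) had 22.4, 26.3, 21.0 and 22.3 CPM in PT-2385 kidneys, against 36.5, 35.3, 28.1 and 31.7 CPM in vehicle kidneys. Every PT-2385 library lay below every vehicle library, the nearest being PT-2385 replicate 2 and vehicle replicate 3. Ppara fell to 0.691 of the vehicle level (log2 fold change −0.53 ± 0.0846 SE; edgeR adjusted p = 0.00467).

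Pparg had 9.51, 5.89, 3.46 and 4.26 CPM in PT-2385 kidneys, against 3.54, 4.65, 3.24 and 5.50 CPM in vehicle kidneys. PT-2385 replicate 1 stood highest and the groups overlapped (log2 fold change 0.40 ± 0.350; edgeR adjusted p = 0.551). Fabp4, the fatty acid binding protein of adipocytes, had 233, 132, 70.1 and 97.9 CPM in PT-2385 kidneys, against 78.8, 102, 94.6 and 105 CPM in vehicle kidneys. It was again highest in PT-2385 replicates 1 and 2, and overlapped between groups (0.48 ± 0.383; edgeR adjusted p = 0.518). The 8 adipocyte markers, none at 0, summed to 233, 175, 57.8 and 69.2 CPM in PT-2385 kidneys and to 55.2, 110, 92.9 and 119 CPM in vehicle kidneys. They too were highest in PT-2385 replicates 1 and 2, and their part in the values of Fabp4 and Pparg was not tested.

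**Figure D3:**
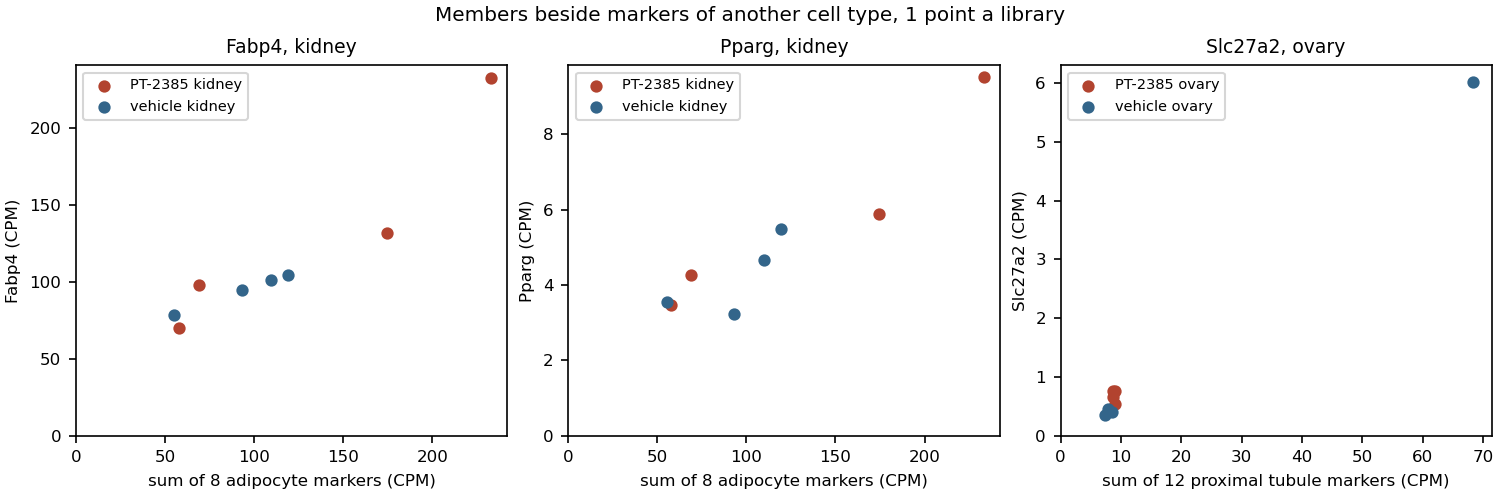
Each point is a library, with the summed CPM of a marker list on the x axis and the CPM of a listed gene on the y axis: Fabp4 and Pparg in kidney beside 8 adipocyte markers, and Slc27a2 in ovary beside 12 proximal tubule markers. In kidney PT-2385 replicate 1 is highest on both axes (233 CPM of the markers), and in ovary vehicle replicate 1 stands apart on both axes (68.4 CPM of the markers).

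Of the carriers, Slc27a2 (ENSMUSG00000027359.17; GRCm39 chromosome 2, 126394327 to 126430163, plus strand) had 1821, 1834, 1690 and 1656 CPM in PT-2385 kidneys, against 2631, 2319, 2067 and 2020 CPM in vehicle kidneys. All PT-2385 libraries lay below all vehicle libraries, and vehicle replicate 1 was the highest. The fall was to 0.775 of the vehicle level (log2 fold change −0.37 ± 0.074; edgeR adjusted p = 0.0126).

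Fabp3, the heart-type fatty acid binding protein, was the gene that rose, with 108, 102, 103 and 115 CPM in PT-2385 kidneys, against 77.5, 82.2, 98.1 and 92.9 CPM in vehicle kidneys. Every PT-2385 library was above every vehicle library, with a narrow gap to vehicle replicate 3. The rise was 1.22-fold (log2 fold change 0.29 ± 0.0677; edgeR adjusted p = 0.0248). Zcchc17 and a further model on the opposite strand share 19.4% of the exon bases of Fabp3, and the counting command names no strand option. Cd36, the fatty acid carrier of the cell surface, had between 44.5 and 82.6 CPM in PT-2385 kidneys and between 58.8 and 99.7 CPM in vehicle kidneys, and did not pass the test (log2 fold change −0.32; edgeR adjusted p = 0.565).

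Of the 14 mitochondrial genes, 1 fell and 12 had a negative log2 fold change, with a median of −0.11. The gene that fell was Acad10 (ENSMUSG00000029456.13; GRCm39 chromosome 5, 121759089 to 121798577, minus strand), an acyl-CoA dehydrogenase. It had 44.4, 45.7, 42.4 and 44.1 CPM in PT-2385 kidneys, against 72.9, 63.8, 56.1 and 61.7 CPM in vehicle kidneys. The PT-2385 libraries were close together and all below the vehicle libraries (0.692 of vehicle; log2 fold change −0.53 ± 0.0674; edgeR adjusted p = 0.00139).

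Acadm, the most abundant mitochondrial gene, had 919.9, 910.4, 759.8 and 834 CPM in PT-2385 kidneys, against 1575, 1244, 1030 and 981 CPM in vehicle kidneys. The groups did not overlap, but vehicle replicate 1 stood at 1.45 times the mean of the other vehicle kidneys, and the log2 fold change of −0.50 ± 0.157 did not pass (edgeR adjusted p = 0.118). Hadh had 404, 412, 383 and 385 CPM in PT-2385 kidneys, against 401, 427, 436 and 412 CPM in vehicle kidneys. These groups overlapped (log2 fold change −0.08 ± 0.0465; edgeR adjusted p = 0.312).

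The carnitine shuttle genes did not pass. Log2 fold changes were −0.21 for Cpt1a (edgeR adjusted p = 0.0794), −0.08 for the translocase Slc25a20 and −0.18 for Cpt2. Acads, the short-chain dehydrogenase, was lower in every PT-2385 library and lay just outside the threshold (−0.17; edgeR adjusted p = 0.057). The dehydrogenases Acadvl (−0.16) and Acadl (−0.04), the trifunctional subunits Hadha and Hadhb, and the dienoyl-CoA reductase Decr1 (−0.14) stayed outside it too. Acadvl shares 45.0% of its exon bases with Dvl2 on the opposite strand, so its counts over those bases are uncertain. The thiolase Acaa2 (0.04) and the isomerase Eci1 (0.08) had small positive values that did not pass.

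All 7 peroxisomal genes had a negative log2 fold change in kidney, with a median of −0.22, and 2 fell. Acox2, the oxidase of branched-chain fatty acids and bile acid intermediates, had 133, 142, 144 and 141 CPM in PT-2385 kidneys, against 209.8, 216, 175 and 180.1 CPM in vehicle kidneys. The groups were well apart, with vehicle replicates 1 and 2 above 3 and 4 (0.718 of vehicle; log2 fold change −0.48 ± 0.0634; edgeR adjusted p = 0.0019). Hsd17b4, the D-bifunctional protein, had 177, 183, 176 and 187 CPM in PT-2385 kidneys, against 226, 215, 206 and 194 CPM in vehicle kidneys. It was lower in every PT-2385 library (0.861 of vehicle; −0.22 ± 0.0511; edgeR adjusted p = 0.0249).

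Ehhadh had 425, 431, 319 and 365 CPM in PT-2385 kidneys, against 817, 623, 470.2 and 470.4 CPM in vehicle kidneys. No PT-2385 library reached a vehicle library, but the vehicle libraries were far apart, with replicate 1 at 1.57 times the mean of the other 3. Its log2 fold change of −0.63 ± 0.213 was the most negative of the 38 and did not pass (edgeR adjusted p = 0.145). Crot, the carnitine octanoyltransferase that prepares shortened chains for export, was lower in every PT-2385 library and lay just outside the threshold (−0.33; edgeR adjusted p = 0.0504). The thiolases Acaa1a (−0.04) and Acaa1b (−0.15) and the reductase Decr2 (−0.03) did not pass, and reads of the closely related Acaa1a and Acaa1b are uncertain.

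Of the 4 genes known in both organelles, 2 fell. Acad11, a dehydrogenase of long and very long chains, had 106, 119, 109 and 112 CPM in PT-2385 kidneys, against 136, 131, 123 and 118 CPM in vehicle kidneys. PT-2385 replicate 2 was above vehicle replicate 4, so the groups overlapped (0.875 of vehicle; −0.19 ± 0.0543; edgeR adjusted p = 0.0488). Eci2, an enoyl-CoA isomerase, had 59.0, 61.9, 57.9 and 56.9 CPM in PT-2385 kidneys, against 70.6, 69.2, 65.4 and 66.8 CPM in vehicle kidneys. It was lower in every PT-2385 library (0.865 of vehicle; −0.21 ± 0.0485; edgeR adjusted p = 0.0219). Acad11 shares 13.0% of its exon bases with models on both strands, and Eci2 shares 10.8% with a model on the opposite strand. Ech1 (−0.0029) and the carnitine acetyltransferase Crat (−0.06) were near 0.

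The further PPAR targets did not pass in kidney. Acot1, a cytosolic acyl-CoA thioesterase, had a log2 fold change of −0.47 (edgeR adjusted p = 0.124), with vehicle replicate 1 at 1.39 times the mean of the other vehicle kidneys. The ω-hydroxylases Cyp4a10 (−0.13) and Cyp4a14 (−0.26), the pantetheinase Vnn1 (−0.15), the thioesterase Acot2 (−0.15) and the peroxisome division factor Pex11a (−0.03) were also negative. Acot1 with Acot2 and Cyp4a10 with Cyp4a14 belong to families of close copies whose reads the counting could split. Pdk4, the kinase that holds back pyruvate oxidation, ranged from 15.6 to 57.1 CPM in PT-2385 kidneys and from 33.4 to 53.3 CPM in vehicle kidneys (−0.31; edgeR adjusted p = 0.730).

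Counted over the 38 genes in kidney, 10 were lower in every PT-2385 library than in every vehicle library, 1 was higher in every one, and 27 overlapped. Over all genes tested in kidney, 7.89% were lower and 5.37% higher without overlap. The 10 were Ppara, Slc27a2, Acadm, Acads, Acad10, Acox2, Ehhadh, Hsd17b4, Crot and Eci2, 4 of them peroxisomal and 3 mitochondrial. Vehicle replicate 1 was the highest vehicle kidney for 25 of the 38 genes, and PT-2385 replicate 3 the lowest PT-2385 kidney for 22.

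**Figure D4:**
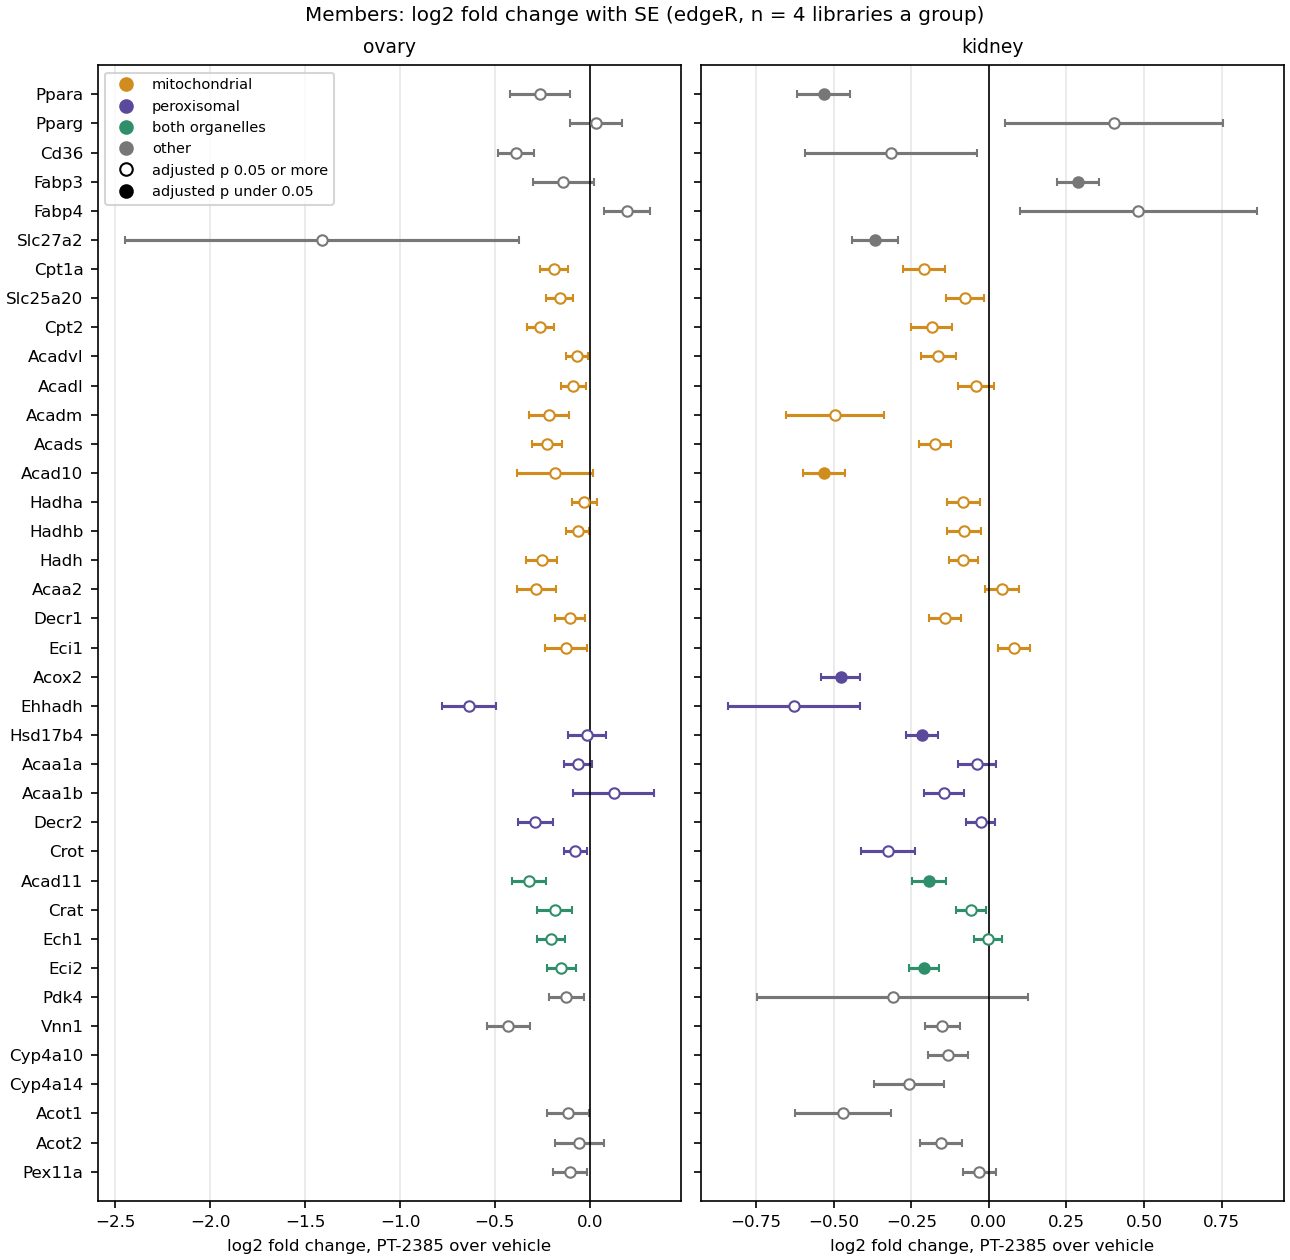
Log2 fold change of PT-2385 over vehicle with its SE from edgeR for each gene tested, in ovary (left, 35 genes) and kidney (right, 38 genes); the panels have different x scales, colour gives the organelle and filled points have an adjusted p under 0.05. Most points lie left of 0 in both panels, and the 8 filled points are all in kidney.

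Summed CPM put mitochondria and peroxisomes side by side. The 14 mitochondrial genes summed to 3326, 3285, 2906 and 3050 CPM in PT-2385 kidneys, against 4123, 3720, 3464 and 3342 CPM in vehicle kidneys. The 7 peroxisomal genes summed to 1208, 1268, 1109 and 1176 CPM in PT-2385 kidneys, against 1846, 1603, 1411 and 1351 CPM in vehicle kidneys. Neither sum overlapped between the groups, and in both vehicle replicate 1 was the highest.

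The peroxisomal sum per mitochondrial sum was 0.363, 0.386, 0.382 and 0.386 in PT-2385 kidneys, against 0.448, 0.431, 0.407 and 0.404 in vehicle kidneys. With Ehhadh left out of the peroxisomal sum it ran from 0.235 to 0.272 in PT-2385 kidneys and from 0.250 to 0.272 in vehicle kidneys, and the groups overlapped. With Acadm left out of the mitochondrial sum as well, it ran from 0.325 to 0.368 in PT-2385 kidneys and from 0.373 to 0.404 in vehicle kidneys, without overlap. Whether the ratio separated the groups thus depended on these single genes, which make up a large share of each sum, and no test was made over the sums.

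**Figure D5:**
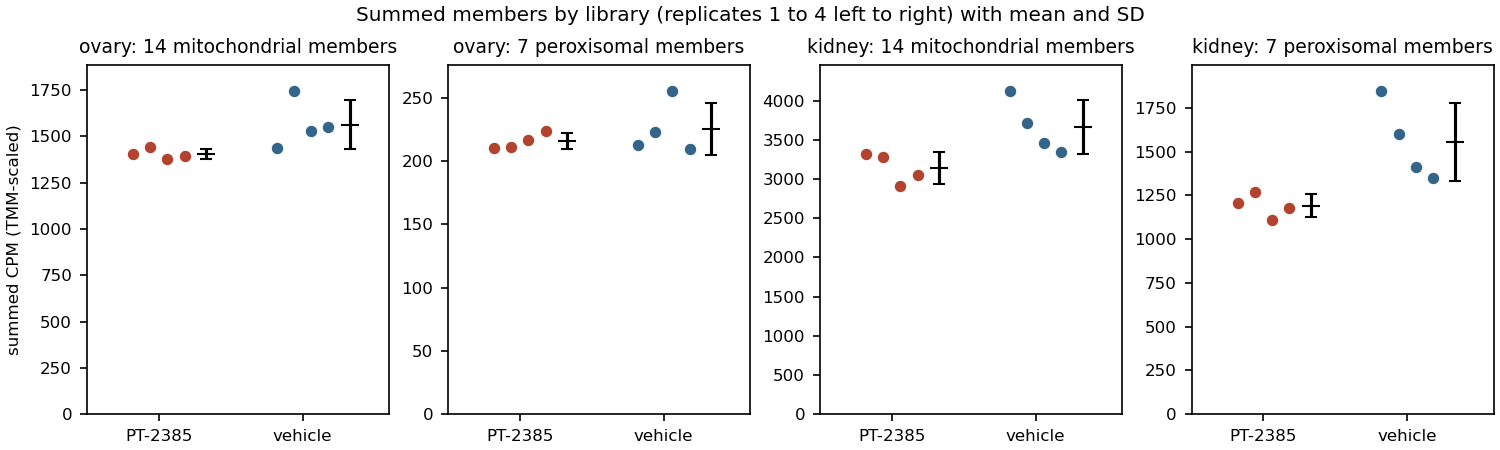
Summed CPM of the 14 mitochondrial and the 7 peroxisomal genes in each library of ovary (left pair of panels) and kidney (right pair), with points for replicates 1 to 4 from left to right and a bar for mean and SD; each axis starts at 0. PT-2385 kidneys lie below vehicle kidneys in both sums, and the ovary groups overlap.

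Markers of cell types were set beside the kidney results. The 12 proximal tubule markers, none at 0, summed to between 21140 and 23100 CPM in PT-2385 kidneys and to between 22900 and 25140 CPM in vehicle kidneys. Of these markers 2 fell, the endocytic receptor Cubn (−0.44; edgeR adjusted p = 0.0288) and the protease Napsa (−0.35; edgeR adjusted p = 0.0176), and 11 had a negative log2 fold change. The 6 hepatocyte markers, none at 0, summed to between 35.8 and 56.0 CPM in PT-2385 kidneys and to between 20.5 and 29.2 CPM in vehicle kidneys, without overlap. All 5 that were tested had a positive log2 fold change, and 1, Serpina1a, rose (0.74; edgeR adjusted p = 0.00257). Serpina1a made up most of each hepatocyte sum, with 28.0 to 30.8 CPM in PT-2385 kidneys and 14.4 to 21.5 CPM in vehicle kidneys. Alb, Apoa1, Apoa2, Fgb and Ahsg each overlapped between the groups. The 10 endothelial markers summed to between 619.5 and 693 CPM in PT-2385 kidneys and to between 586 and 631 CPM in vehicle kidneys. All 10 had a positive log2 fold change, and 1 rose. The 8 macrophage markers, none at 0, summed to between 96.8 and 111 CPM in PT-2385 kidneys and to between 115 and 125 CPM in vehicle kidneys, without overlap. Of them 7 had a negative log2 fold change and 1, the receptor Csf1r, fell (−0.27; edgeR adjusted p = 0.0251). Csf1r made up most of each macrophage sum, with 57.2 to 69.5 CPM in PT-2385 kidneys and 71.9 to 80.5 CPM in vehicle kidneys. Each of the other macrophage markers overlapped between the groups and did not pass. The 8 distal nephron markers, none at 0, summed to between 5348 and 6018 CPM in PT-2385 kidneys and to between 5652 and 6180 CPM in vehicle kidneys. Of them 6 had a positive log2 fold change and 1, Pvalb, rose (0.30; edgeR adjusted p = 0.0342). The part of these cell types in the kidney results was not tested.

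The kidney calls were not equally stable. Ppara, Acad10 and Acox2 passed in each of 8 fits that left out 1 kidney library, Slc27a2 in 5, Hsd17b4, Eci2 and Fabp3 in 4 each, and Acad11 in 3. The count of 8 became 3 without vehicle replicate 2, 4 without PT-2385 replicate 1, 3 without PT-2385 replicate 3 and 3 without PT-2385 replicate 4, 13 with DESeq2, and 5 with both organs in 1 fit, where Ppara, Acad10 and Ehhadh were among those that passed and Acox2 did not (adjusted p = 0.263).

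A wider list of 68 genes of the same pathways (lipases, acyl-CoA synthetases, thioesterases, transporters, electron transfer and further PPAR targets) was described in the same way. In kidney 65 were tested, of which 12 fell and 0 rose, where 3.7% of all genes tested fell. Log2 fold changes were negative in 46 of the 65 (48.5% of all genes tested), with a median of −0.10. Of the 65, 31 had an unadjusted p under 0.05, against 23.1% of all genes tested.

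Those that fell included peroxisomal genes. Acox3, an oxidase of branched chains, had 129, 129, 119 and 126 CPM in PT-2385 kidneys, against 146, 147, 154 and 139.5 CPM in vehicle kidneys (−0.22; edgeR adjusted p = 0.0146). The groups did not overlap. The membrane transporter Abcd3 (−0.34; adjusted p = 0.0214), the racemase Amacr (−0.22; 0.0398), the thioesterases Acot3 (−0.30; 0.0134) and Acot12 (−0.41; 0.0084) and the coenzyme A hydrolase Nudt19 (−0.30; 0.0173) also fell in the edgeR test. Acot12 is cytosolic. Acot3 shares 20.6% of its exon bases with models on both strands and Nudt19 shares 40.8% of its exon bases with a model on the opposite strand.

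Mitochondrial genes that fell were Etfdh, which passes electrons from acyl-CoA dehydrogenases to ubiquinone (−0.23; edgeR adjusted p = 0.0391), and the acetoacetyl-CoA thiolase Acat1 (−0.20; edgeR adjusted p = 0.0372). The lysosomal lipase Lipa (−0.17; 0.0437), the ω-hydroxylase Cyp4a31 (−0.19; 0.0298), glycerol kinase Gk (−0.34; 0.0201) and the desaturase Fads2 (−0.25; 0.00513) fell as well. Acot12 and Fads2 passed in all 8 fits that left out a library. The count of 12 became 4 with both organs in 1 fit, and 3 when PT-2385 replicate 3, PT-2385 replicate 4 or vehicle replicate 2 was left out. Calls over all kidney genes in these fits are not given here.

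In ovary the values of most of the 35 genes tested lay slightly below vehicle, and none passed. Of the 35, 0 passed the edgeR test at an adjusted p under 0.05, where 0.0497% of all 18125 genes tested passed. At an unadjusted p under 0.05 there were 12 of the 35, against 13.2% of all genes tested. DESeq2 called 3 (Ehhadh, Cd36 and Vnn1), and over all genes it called 322 where edgeR called 9. Log2 fold changes were negative in 32 of the 35 (50.8% of all genes tested), with a median of −0.15 against −0.003 over all genes tested. Acox2, Cyp4a10 and Cyp4a14 had too few counts in ovary to be tested.

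Ehhadh had 2.54, 2.89, 2.58 and 3.07 CPM in PT-2385 ovaries, against 4.82, 4.63, 3.88 and 4.04 CPM in vehicle ovaries. All PT-2385 libraries were below all vehicle libraries, and the log2 fold change was −0.64 ± 0.143 (edgeR adjusted p = 0.114). Cd36 had 24.4, 25.0, 19.8 and 22.3 CPM in PT-2385 ovaries, against 31.9, 32.2, 25.8 and 29.7 CPM in vehicle ovaries. Its groups did not overlap either (−0.39 ± 0.0946; edgeR adjusted p = 0.143). Vnn1 had 13.8, 16.1, 14.7 and 17.6 CPM in PT-2385 ovaries, against 21.96, 24.6, 17.02 and 20.5 CPM in vehicle ovaries. PT-2385 replicate 4 lay just above vehicle replicate 3 (−0.43 ± 0.114; edgeR adjusted p = 0.175).

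Neither receptor passed the test in ovary. Ppara had 2.66, 3.39, 3.23 and 3.83 CPM in PT-2385 ovaries, against 3.85, 4.14, 4.60 and 3.26 CPM in vehicle ovaries. The groups overlapped through PT-2385 replicates 2 and 4 and vehicle replicate 4 (−0.26 ± 0.160; edgeR adjusted p = 0.503). Pparg had 32.2, 33.3, 34.5 and 32.7 CPM in PT-2385 ovaries, against 32.9, 23.5, 41.8 and 31.6 CPM in vehicle ovaries. Its vehicle libraries spread on both sides of the PT-2385 libraries, and its log2 fold change of 0.03 ± 0.136 (edgeR adjusted p = 0.947) became −0.10 without vehicle replicate 2.

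Slc27a2 had 0.768, 0.540, 0.767 and 0.658 CPM in PT-2385 ovaries, against 6.02, 0.359, 0.454 and 0.407 CPM in vehicle ovaries. Vehicle replicate 1 stood apart, and the other 3 vehicle libraries lay below all PT-2385 libraries. The log2 fold change of −1.41 ± 1.04 (edgeR adjusted p = 0.600) was 0.72 without vehicle replicate 1 (adjusted p = 0.434). In that library the 12 proximal tubule markers summed to 68.4 CPM, with Kap at 32.5 and Slc34a1 at 10.5 CPM, against sums between 8.62 and 9.1 CPM in PT-2385 ovaries and between 7.34 and 8.44 CPM in the other vehicle ovaries. The same library had the highest ovary values of Acox2 (0.971 CPM), Cyp4a10 (0.744 CPM) and Cyp4a14 (1.20 CPM). Of the distal nephron markers, Slc12a1 (4.24 CPM), Umod (3.95), Slc12a3 (2.62), Kcnj1 (1.04) and Calb1 (2.75) also stood highest in it. Aqp2, Pvalb and Fxyd4 did not. The part of proximal tubule or other nephron RNA in the values of that library was not tested.

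Of the most abundant genes of the ovary, Acaa2 had 119, 117, 98.4 and 111 CPM in PT-2385 ovaries, against 116, 166, 131 and 128 CPM in vehicle ovaries. Its vehicle replicate 1 lay among the PT-2385 libraries and vehicle replicate 2 well above (−0.28 ± 0.102; edgeR adjusted p = 0.280). Cpt1a had 314, 356, 337 and 319.6 CPM in PT-2385 ovaries, against 352, 404, 364 and 390.3 CPM in vehicle ovaries. Only PT-2385 replicate 2 of its treated libraries reached the vehicle range (−0.19 ± 0.0745; edgeR adjusted p = 0.321). Acadm had 145, 148, 143 and 135 CPM in PT-2385 ovaries, against 149.7, 206, 138 and 169 CPM in vehicle ovaries, and overlapped (−0.22 ± 0.106; edgeR adjusted p = 0.407).

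By organelle, all 14 mitochondrial genes had a negative log2 fold change in ovary (median −0.17) and so did 5 of the 6 peroxisomal genes tested (median −0.07) and the 4 of both organelles (median −0.20). Acaa1b, at 1.40 CPM in vehicle ovaries, was the peroxisomal exception (0.13). Without vehicle replicate 2 the medians were −0.07 for the mitochondrial and −0.05 for the peroxisomal genes, and without vehicle replicate 3 the peroxisomal median was −0.04. Of the 35, 7 (Cd36, Cpt2, Hadh, Ehhadh, Decr2, Acad11 and Ech1) were lower in every PT-2385 ovary than in every vehicle ovary, against 3.77% of all genes tested. Vehicle replicate 2 was the highest vehicle ovary for 22 of the 35 genes.

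The mitochondrial sum was 1404, 1444, 1380 and 1394 CPM in PT-2385 ovaries, against 1435, 1745, 1528 and 1550 CPM in vehicle ovaries. Vehicle replicate 1 lay below PT-2385 replicate 2, so the groups overlapped. The peroxisomal sum was 211, 212, 217 and 224 CPM in PT-2385 ovaries, against 213, 223, 256 and 210.0 CPM in vehicle ovaries, and also overlapped. The ratio of the sums ran from 0.147 to 0.161 in PT-2385 ovaries and from 0.128 to 0.167 in vehicle ovaries.

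Vehicle replicate 2 of the ovary was also the library with the highest sums of several marker lists and the lowest of others. Its endothelial (905 CPM) and macrophage (142 CPM) sums were the highest of the ovary libraries. Its granulosa (1889 CPM), hepatocyte (35.9 CPM) and proximal tubule (7.34 CPM) sums were the lowest. The 8 adipocyte markers summed to 108, 131, 48.8 and 92.0 CPM in PT-2385 ovaries, with 2 of them at 0 in all 4, and to 170, 422, 111 and 243 CPM in vehicle ovaries, with none at 0 in all 4. Plin4, also known outside fat, made up most of each sum, and Adipoq was at 4.14 CPM in vehicle replicate 2 and at 0.916 CPM or less in the other ovary libraries. The 6 luteal and steroidogenic markers summed to between 13660 and 14310 CPM in PT-2385 ovaries and to between 12910 and 19990 CPM in vehicle ovaries. The part of these markers in the ovary values was not tested.

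Of the wider list, 59 genes were tested in ovary, of which 0 passed the edgeR test (0.0497% of all genes tested passed). An unadjusted p under 0.05 was seen in 13, against 13.2% of all genes tested, and a negative log2 fold change in 39, against 50.8% (median −0.07). The smallest p belonged to Lipa, with 49.1, 52.7, 46.4 and 51.0 CPM in PT-2385 ovaries, against 59.5, 67.1, 55.0 and 57.8 CPM in vehicle ovaries. Its groups did not overlap (−0.26 ± 0.0719; edgeR adjusted p = 0.184). Acsl3, a long-chain acyl-CoA synthetase of lipid droplets, was higher in every PT-2385 ovary than in every vehicle ovary (0.25; edgeR adjusted p = 0.211), and Acox3 had a value of −0.37 (edgeR adjusted p = 0.235).

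The difference between the organs' responses, ovary minus kidney, was tested over all 16 libraries. No label says whether the kidney and ovary of a replicate number came from the same mouse. The test treated the 16 libraries as independent. Of the 38 genes, 0 passed the edgeR test, where 0.19% of all 19977 genes tested passed, and DESeq2 also called 0. At an unadjusted p under 0.05 there were 5 of the 38, against 12.0% of all genes tested. So the calls in kidney alone do not show that the response there differed from that in ovary.

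The smallest p belonged to Cyp4a10, at −3.89 ± 1.34 (edgeR adjusted p = 0.264), whose ovary level was at most 0.744 CPM, reached in vehicle replicate 1. It was −2.26 without that library and −5.49 without PT-2385 ovary replicate 2. Decr2 differed by −0.24 ± 0.0919 (edgeR adjusted p = 0.302), with −0.29 in ovary and −0.03 in kidney on the log2 scale. Acaa2 differed by −0.30 ± 0.120 (edgeR adjusted p = 0.315), with −0.28 in ovary and 0.04 in kidney. Crot differed by 0.27 ± 0.108 (edgeR adjusted p = 0.319), with −0.08 in ovary and −0.33 in kidney. Ehhadh, with the most negative value of the 38 in kidney, had −0.64 in ovary and −0.63 in kidney.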

How the data were processed

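Read pairs per gene were counted by the authors with featureCounts 2.0.6, per the file headers, which record exons summed by gene, GENCODE vM27 basic as annotation and no strand option. FastQC, STAR and GRCm39 stand in the submitters' processing notes, with tool versions not given in the sources used here. Libraries were made with a stranded polyA kit from 1.8 to 5 µg of RNA, per the labels' protocols. The deposited exon length per gene was used for levels per kb.

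The 38 genes, the wider list and the marker lists were chosen with earlier results of these data known. Symbols came from GENCODE M21 by gene identifier (52083 of 55359). Of the 38 genes, 8 share exon bases with another gene model. Samples were grouped by the labels, and 0 columns of other samples were present.

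Each organ was tested alone (8 libraries, 6 residual degrees of freedom) with the robust quasi-likelihood test of edgeR 4.0.16 (R 4.3.3) after TMM scaling, for genes that passed filterByExpr at its defaults (count 10, total 15). The interaction used all 16 libraries. The Benjamini-Hochberg adjustment ran over all genes of a comparison, and an adjusted p under 0.05 was a call. CPM are TMM-scaled within the organ, and levels per kb over all 16 libraries. The script was tested on simulated data. Values in every library are given for Ppara and Pparg, genes that passed, the 4 largest log2 fold changes at 1 CPM or more and the 3 highest levels of an organ, and for Fabp4 and summed markers, chosen after their values were seen. Of the wider list, genes that passed or had the 3 smallest p are named.

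Alternatives were median-ratio scaling, DESeq2 1.42.0, a replicate block, no filter, at least 1 CPM in 4 libraries, 1 fit of both organs and each library left out. The same alternatives for the wider list, the sums without Ehhadh and Acadm, and the levels without ovary vehicle replicate 1 were chosen after seeing the data. Tables and figures were made with Python 3.11.15 and matplotlib 3.10.9.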

Additional observations from a re-analysis of the deposited data

Results flagged for a closer look

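Slc27a2 in vehicle ovary replicate 1 stood at 6.02 CPM, far above the other 3 vehicle ovaries (0.359, 0.454 and 0.407 CPM), by a gap test at Dixon's 95% critical value for 4 samples. Of 42 groups of 4 libraries examined in this way 1 stood out, and chance gives about 1 in 20.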

How the results depend on the processing

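The count of the 38 genes that passed in kidney, 8, was 13 with DESeq2, 14 with a replicate block and 5 in 1 fit of both organs, and ran from 3 to 10 with a library left out. The wider list's count in kidney, 12, was 4 in 1 fit of both organs and ran from 3 to 13 with a library left out. Kidney calls over all genes under these settings are not given here. The moves are therefore not shown to be particular to the listed genes. In ovary 3 passed with DESeq2, 3 with no filter, 2 with the replicate block, 3 in 1 fit of both organs, and from 0 to 3 with a library left out (3 without vehicle replicate 3, 0 without any other). Over all genes the ovary calls were 9 in the main fit, 322 with DESeq2, 330 with no filter and 395 with the replicate block. They were 325 in 1 fit of both organs and 1090 without vehicle replicate 3, so calls rose over all genes under these settings. The interaction count ran from 0 to 1 (1 without ovary vehicle replicate 3). The ovary median of the peroxisomal genes, −0.07, was −0.17 with the 4 genes of both organelles counted in. Medians of mitochondrial genes ran from −0.20 to −0.07 in ovary and from −0.14 to −0.09 in kidney over all alternatives, and those of peroxisomal genes in kidney from −0.25 to −0.18. The peroxisomal ovary median ran from −0.10 to −0.04 with a library left out. In ovary the sign turned for Slc27a2 (0.72 without vehicle replicate 1, and from −1.75 to 0.72 with a library left out) and Pparg (−0.10 without vehicle replicate 2, and from −0.10 to 0.18). Ppara and Acad10 in kidney passed under all 14 alternatives. Acad11 lost its call under 2 of the 6 settings that kept all libraries. The causes were not tested. Deviations of same-numbered PT-2385 and vehicle libraries correlated between −0.172 and 0.236 in ovary and between −0.064 and 0.052 in kidney. Those of same-numbered ovary and kidney libraries correlated between −0.043 and 0.091 with PT-2385 and between 0.021 and 0.078 with vehicle. Libraries of unlike number were not compared, so whether replicate numbers pair the samples was not settled. Outside vehicle replicate 1, Slc27a2, Acox2, Cyp4a10 and Cyp4a14 stood under 1 CPM in ovary and rest on few counts.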
